A study of Mus musculus with 8 samples.

Results

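The response to Hedgehog ligand without the Esrrb vector was examined in 4 of the 8 RNA-Seq samples, the 2 Control and the 2 Hh-CM samples. The cells were NIH3T3 fibroblasts, a line from mouse embryos that is widely used as a Hedgehog-responsive model, carrying the empty vector pcDNA3.1 (Zeo+) and selected with Zeocin. Hh-CM samples received medium conditioned by human embryonic kidney cells (HEK293) with a transgene for the N-terminus of Shh, diluted 1:100 and applied to confluent cells for 48 h. Control samples received medium from HEK293 cells that lack the transgene, at the same dilution. The cells had been established from independent transfections that were pooled, and the sources do not say which transfection a sample came from. The study calls the 2 samples of a condition biological replicates. The 4 other samples were labelled as carrying the Esrrb expression vector, with the same medium treatments. The fit took in all 8 samples, so p-values and standard errors rest on the spread within all 4 conditions, those labelled Esrrb included. Since the transfection of each sample is not stated, the p-values measure only the spread between these samples, which may still be technical. All genes that reached the expression limit given below were tested, 10211 of the 20363 genes with a value in the 4 samples.

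Hedgehog ligands bind Patched receptors at the primary cilium. Without ligand, Patched holds the membrane protein Smoothened inactive. With ligand, Smoothened becomes active, Sufu releases the Gli transcription factors, and these switch on target genes that include Gli1 and Ptch1 themselves. In fibroblasts of developing organs this pathway carries signals from epithelium to mesenchyme and is known for its effects on proliferation, matrix and secreted growth factors.

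Expression is given as FPKM, a fragment count scaled by transcript length and by the mapped fragments of the sample, as Cufflinks wrote it for each sample. A gene was tested where 2 or more of the 4 samples had an FPKM of 1 or higher. Log2 fold changes are Hh-CM minus Control on the scale of log2(FPKM + 0.1), which understates the change of low genes, and errors of fold changes are standard errors. A gene is said to have risen or fallen where the limma p, adjusted by Benjamini-Hochberg over all tested genes, was below 0.05. It is called up-regulated or down-regulated where the log2 fold change was also at least 1 in size. The read depth is not given in the files, and the steps of low FPKM values put it at 1.17 times Control replicate 1 in Control replicate 2, 1.11 times in Hh-CM replicate 1 and 1.54 times in Hh-CM replicate 2. The 2 samples of a condition were within 1 log2 unit of each other for 97.99% to 98.06% of tested genes. All 8 fibroblast markers checked reached an FPKM of 1 in the 4 samples, and their summed FPKM was 8876 and 8882 in Control and 8449 and 8756 in Hh-CM. Of these 8, Thy1 rose from 88.0 and 87.3 to 385 and 410 FPKM (2.18 ± 0.05), S100a4 fell by 0.43 ± 0.04 and Pdgfrb fell by 0.37 ± 0.04, while the other 5 did not pass the test. The markers Epcam, Krt5, Cldn4, Kdr, Myod1, Myog, Ckm and Sox2, of epithelial, endothelial, muscle and neural cells, were listed at 0 in all 4 samples. Bulk samples cannot tell fewer cells with a transcript from less transcript per cell.

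The 2 genes used as signs of Hedgehog activity separated the conditions clearly. Gli1, a Gli transcription factor whose own gene is a direct pathway target, lies on chromosome 10 of mm9 (126766945 to 126778645). Its FPKM was 0.0217 and 0.0308 in Control and 26.8 and 28.1 in Hh-CM samples. Ptch1, the receptor that restrains Smoothened, lies on chromosome 13 (63610261 to 63674474). Its FPKM was 2.44 and 2.98 in Control samples and 37.0 in both Hh-CM samples. The groups did not overlap for either gene, and the log2 fold changes were 7.77 ± 0.20 for Gli1 (adjusted p = 2.9e-05) and 3.73 ± 0.11 for Ptch1 (adjusted p = 3.45e-05). Esrrb itself was listed at 0 in both Control samples and at 0.0281 and 0.0203 in the Hh-CM samples, far below the limit for a test.

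**Figure D1:**
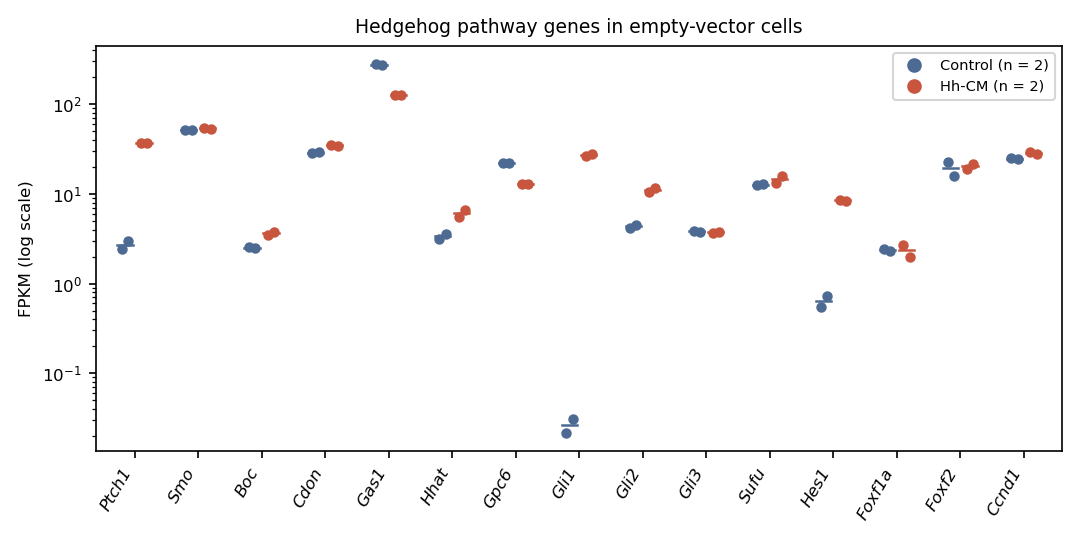
FPKM on a log scale of 15 Hedgehog pathway and target genes in the 2 Control (blue) and 2 Hh-CM (red) samples, with a bar at each group mean. Gli1, Ptch1 and Hes1 lie far apart between the conditions, Gas1 and Gpc6 lie lower with Hh-CM, and Smo, Gli3, Sufu, Foxf1a and Foxf2 lie close together.

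In the whole comparison, 273 of 10211 tested genes (2.67%) passed both thresholds. Of these, 194 (1.9%) were up-regulated and 79 (0.774%) down-regulated. The adjusted p alone was passed by 1861 genes (18.2%), of which 1080 rose (10.6%) and 781 fell (7.65%). The lists were chosen with earlier results of these data known, so their member counts may be fixed in part. The shares of 10.6% and 7.65% are the background for these counts in every list. They rest on both samples of each condition, since whichever of the 4 libraries was left out, 995 to 1060 genes passed, 5.87% to 5.97% rising and 3.82% to 4.41% falling. With FPKM rescaled to equal medians, 930 rose and 1020 fell (9.11% and 9.99%) and the median log2 fold change of all genes was -0.0036. The 2 conditions did not overlap for 6421 genes (62.9%), so that non-overlap by itself separates few genes from the rest. The median log2 fold change over all tested genes was 0.03. With 2 against 2 samples the smallest p of an exact permutation test is 0.333, and the fit across all genes was used instead.

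Of the 194 up-regulated genes, 179 had values above 0 in all 4 samples, and 75 of the 79 down-regulated genes did. These 254 genes are described first, and genes listed at exactly 0 on a whole side are set apart further below. Of the 136 genes chosen for naming that passed both thresholds, 94 kept both without each library in turn. The 16 genes 2700046G09Rik, Acmsd, Ccr7, Cenpa, Dlk1, Dusp4, Edn1, Eml3, Fabp4, Htra1, Lcn2, Lmod1, Ska1, Smad7, Tk1 and Ttll6 lost the adjusted p whichever of the 4 libraries was left out. The other 26 lost the adjusted p or fell short of the fold limit without 1 to 3 of the libraries, and each of the 4 libraries ended some of these calls.

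Upstream in the pathway, the largest difference named here was that of Ptch1. Among 18 ligand, receptor and co-receptor genes, 8 were tested, 4 rose and 2 fell. Hhat, the acyltransferase that attaches palmitate to Hedgehog ligands, rose by 0.82 ± 0.12, and the co-receptor Cdon rose by 0.26 ± 0.04. The signal protein Smo had FPKM values of 52.2 and 51.3 in Control and 55.0 and 53.4 in Hh-CM samples (adjusted p = 0.353). Its transcript thus differed by 0.07 ± 0.04, while that of Ptch1 differed by 3.73 ± 0.11. The co-receptor Gas1 had 281 and 273 FPKM in Control and 128 in both Hh-CM samples and was down-regulated, at -1.11 ± 0.05 (adjusted p = 0.000135). Gpc6, a glypican at the cell surface, fell by 0.77 ± 0.05. Boc, the co-receptor related to Cdon, had 2.56 and 2.47 FPKM in Control and 3.45 and 3.8 in Hh-CM samples (adjusted p = 0.244). Its adjusted p also reflects the samples labelled Esrrb that received Hh-CM, which lay apart at 3.995 and 7.044 FPKM. The ligand gene Shh and the antagonist gene Hhip were listed at 0 in all 4 samples, Dhh as well, and Ihh did not exceed 0.0557 FPKM.

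Among the 27 signal transducers, 23 were tested and only Gli1 and Gli2 passed the test, both up-regulated. Gli2, the main activating Gli factor of many tissues, had 4.19 and 4.55 FPKM in Control and 10.6 and 11.8 in Hh-CM samples, a log2 fold change of 1.33 ± 0.08. Gli3, which acts mostly as a repressor, had 3.90 and 3.72 FPKM against 3.70 and 3.8 (adjusted p = 0.882). The inhibitor Sufu differed by 0.19 ± 0.08 (adjusted p = 0.179) and the ciliary kinesin Kif7 by 0.35 ± 0.10 (adjusted p = 0.0648). The changes in this group were thus at the Gli genes, and the other 21 members ranged between -0.47 (Stk36) and 0.40 (Tulp3).

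Of 44 genes known as Hedgehog targets in mesenchyme, 29 were tested, 13 rose and 7 fell, against 10.6% and 7.65% of all tested genes. Hsd11b1, on the list like Angpt4 because the study names it for these samples, converts inactive to active glucocorticoid and lies on chromosome 1 (195047824 to 195090248). Its FPKM was 3.77 and 3.63 in Control and 78.9 and 76.8 in Hh-CM samples, a log2 fold change of 4.36 ± 0.23. The repressor gene Hes1, on chromosome 16 (30064470 to 30067882), had 0.550 and 0.725 FPKM in Control and 8.60 and 8.35 in Hh-CM samples, a change of 3.55 ± 0.24. Angpt4, a ligand of the Tie2 receptor, rose by 2.69 ± 0.24, Foxm1, a mitotic transcription factor, by 1.07 ± 0.06, and the repressor gene Snai1 by 0.98 ± 0.11. Bcl2, which protects cells from death, rose by 0.58 ± 0.12. The nuclear receptor gene Nr2f1 and the matrix protein gene Spp1 were down-regulated, at -1.04 ± 0.19 and -1.03 ± 0.04, while Nr2f2 rose by 0.68 ± 0.08. Of the D-type cyclin genes on the list, Ccnd1 rose by 0.22 ± 0.04 and Ccnd2 fell by 0.28 ± 0.07.

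The mesenchymal forkhead genes that were tested, several of which are known targets in the gut and lung, showed no such pattern. Of 25 forkhead genes in that list, 16 were tested. None of these 16 had an adjusted p below 0.05, and their log2 fold changes ranged from -0.21 to 0.31. Foxd2, which was not tested, had 0.866 and 0.771 FPKM in Control and 2.51 and a listed 0 in Hh-CM samples. The study lists Foxd2 among the genes raised by Hh-CM. Foxf1a had FPKM values of 2.42 and 2.32 in Control and 2.71 and 1.99 in Hh-CM samples. Foxf2 had 22.9 and 15.8 against 18.9 and 21.7, and the extent of its locus changed between samples. The 2 conditions overlapped for both genes.

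**Figure D2:**
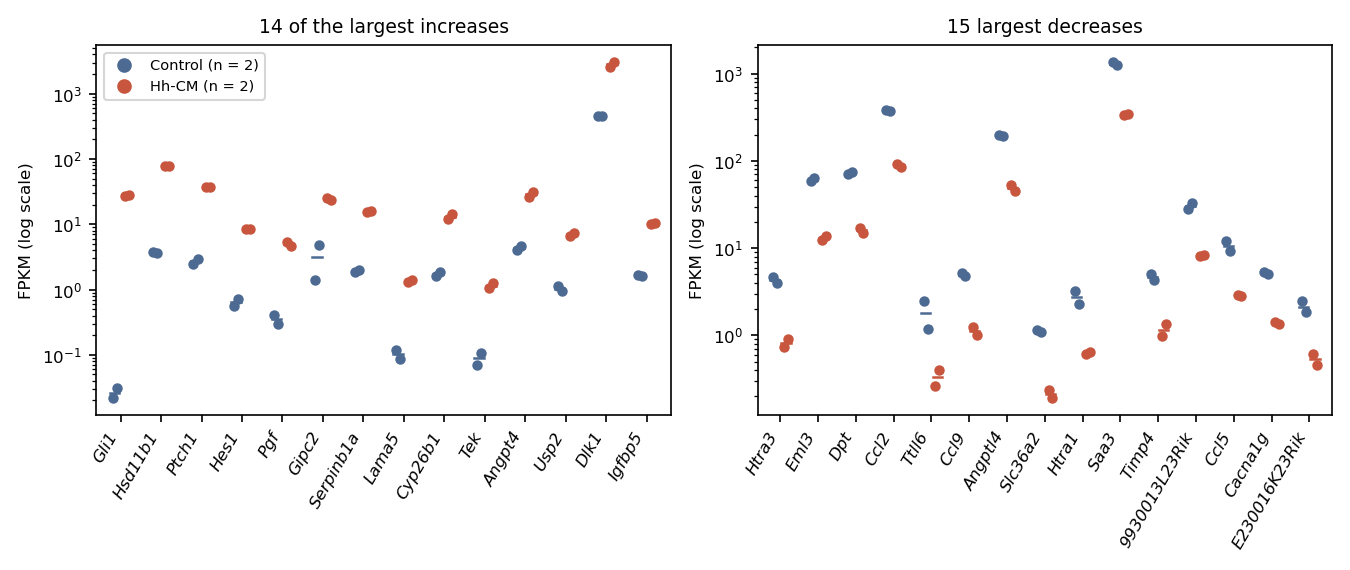
FPKM on a log scale of 14 of the 15 genes with the largest increases (left) and the 15 with the largest decreases (right) among genes above 0 in all 4 samples and past both thresholds, with a bar at each group mean. The genes were chosen so that the Control (blue) and Hh-CM (red) samples do not overlap, which is therefore no result.

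Next to the pathway genes, the largest increases belonged to genes for secreted, membrane and intracellular proteins. Pgf, placental growth factor of the VEGF family, on chromosome 12 (86507589 to 86518246), had 0.411 and 0.300 FPKM in Control and 5.36 and 4.65 in Hh-CM samples. Its log2 fold change was 3.49 ± 0.22. Serpinb1a, a protease inhibitor, rose from 1.86 and 1.99 FPKM to 15.5 and 15.9, and the laminin gene Lama5 from 0.117 and 0.0857 to 1.33 and 1.41. Cyp26b1, the enzyme that degrades retinoic acid, rose from 1.63 and 1.88 to 12 and 14.3 FPKM. Each of these genes was several times higher in both Hh-CM samples than in either Control sample. Gipc2 rose from 1.41 and 4.85 to 25.1 and 23.5 FPKM, with the 2 Control samples apart from each other. Dlk1, a membrane inhibitor of adipocyte formation, had a high level and rose from 448 and 450 FPKM to 2590 and 3030 (adjusted p = 0.032). Its adjusted p also reflects the samples labelled Esrrb without Hh-CM, which lay apart at 2042 and 502 FPKM.

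The 15 largest decreases belonged to genes of several kinds, including chemokine and acute-phase genes described with their lists. The secreted serine proteases Htra3 and Htra1 were down-regulated, at -2.27 ± 0.26 and -1.96 ± 0.45. Dpt, dermatopontin of the collagen matrix, on chromosome 1 (166726863 to 166754397), fell from 71.3 and 74.2 to 17.1 and 14.9 FPKM, at -2.18 ± 0.07. Angptl4, a secreted inhibitor of lipoprotein lipase, fell from 199 and 196 to 53.2 and 45.4 FPKM. These values lay far outside the spread between the 2 samples of a condition. Timp4, an inhibitor of matrix metalloproteinases, and Cacna1g, a calcium channel gene, were down-regulated as well, at -1.92 ± 0.22 and -1.83 ± 0.08. Eml3, a microtubule-associated protein, Ttll6, a tubulin-modifying enzyme, Slc36a2, an amino acid transporter, and 9930013L23Rik were at -2.20 ± 0.55, -2.08 ± 0.50, -1.97 ± 0.24 and -1.88 ± 0.09. The extent of the locus changed between samples for Eml3, E230016K23Rik, Timp4 and Dusp4, and its part in their values was not tested. In all, 600 tested genes (5.88%) and 19 of the 273 genes past both thresholds had such a locus, with an overlap between samples below 0.9.

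**Figure D3:**
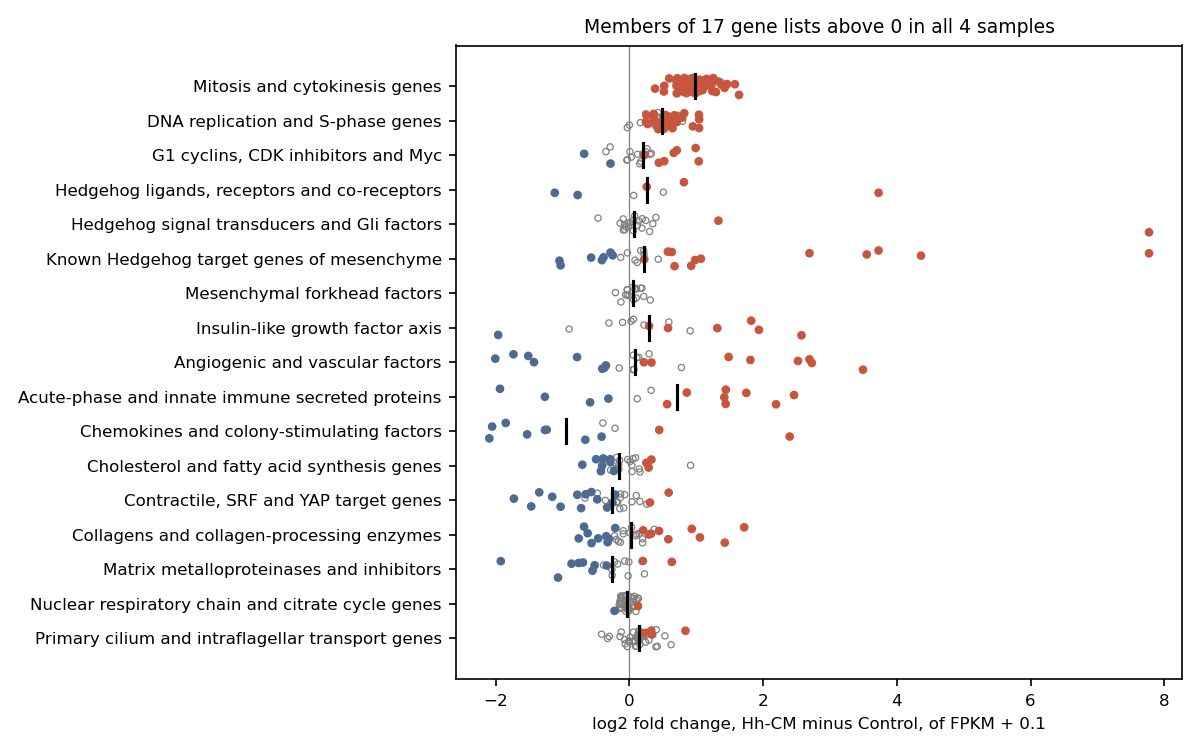
Log2 fold change of the members of 17 gene lists with values above 0 in all 4 samples, 1 point per gene, with a bar at each median. Filled red points rose, filled blue points fell and open points did not pass the test. The mitosis members all lie above 0, and most chemokine and contractile members lie below 0.

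Cell division genes rose as a body. Of 61 genes of mitosis and cytokinesis, 60 were tested and all 60 rose, against 10.6% of all tested genes, with 28 past both thresholds. The median log2 fold change was 0.98, and the members ranged only from 0.38 (Smc4) to 1.64 (Cdc25c), so that the rise was even rather than driven by a few genes. Their median FPKM was 4.53 and 4.70 in Control and 8.67 and 9.41 in Hh-CM samples. Top2a, the topoisomerase that untangles chromosomes, on chromosome 11 (98854257 to 98885503), rose from 14 and 14.2 to 43.2 and 41.2 FPKM, a log2 fold change of 1.58 ± 0.04 (adjusted p = 3.16e-05). Mki67, the proliferation marker, rose from 2.66 and 2.11 to 6.83 and 6.23 FPKM. The kinetochore gene Cenpf rose from 1.37 in both Control samples to 3.98 and 3.67 FPKM. Cdk1, the kinase that drives entry into mitosis, rose less, from 13.8 and 13.9 to 20.3 and 19.6 FPKM. Its cyclin partner Ccnb1 rose by 0.89 ± 0.08, the polo kinase Plk1 by 1.02 ± 0.07 and survivin, Birc5, by 1.05 ± 0.06. Without each library in turn, between 51 and 55 of the 60 members rose.

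The genes of DNA replication showed a smaller shift. Of 44, 42 were tested, 27 rose and none fell, and the median log2 fold change was 0.49. Tk1, thymidine kinase, Pole, a DNA polymerase subunit, and Mcm10, a replication initiation factor, were each up-regulated at 1.04. The replication clamp Pcna rose by 0.25 ± 0.06 and the helicase subunit Mcm2 by 0.27 ± 0.07. The origin licensing gene Cdt1 had 10.1 and 11.1 FPKM in Control and 9.98 and 11.2 in Hh-CM samples (adjusted p = 0.996). The count was less stable than that of mitosis, since between 12 and 15 members rose without each library in turn and 12 rose where no FPKM limit was set. Among 23 tested G1 genes, 7 rose and 2 fell. The repressors E2f8 and E2f7 rose by 1.04 ± 0.20 and 0.99 ± 0.15 and cyclin E2, Ccne2, by 0.71 ± 0.11. Myc fell by 0.68 ± 0.16, and the inhibitor Cdkn1b differed by 0.01 ± 0.10 (adjusted p = 0.971). Stmn1, a tubulin-binding protein of dividing cells, rose from 32.5 and 32.0 to 69.1 and 62.7 FPKM, and 6 of 11 tested histone and chromatin genes rose while none fell.

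Promoters of mitotic genes are known to carry the CHR element TTTGAA, often with CCAAT boxes, and the sequences of this group are shown because its members moved together. RefSeq promoter windows of GRCm38.p6, from 250 bases before to 50 after the start, were searched for both motifs on both strands. TTTGAA was present in 73.47% of the 49 mitosis genes with an entry, in 12.5% of 32 replication genes and in 20.23% of all 27025 genes with an entry. CCAAT was present in 75.51%, 59.38% and 41.06% of the same sets. Among lists with more members that fell, TTTGAA was present in 50% of 6 chemokine genes and in 5% of 20 contractile genes with an entry. For CCAAT these shares were 16.67% and 45%. A match describes the letters of the window and is not a tested site. Of 46 mitosis members with a single entry, 28 held both motifs, and the 3 of these 28 with the largest log2 fold changes are printed 5′ to 3′ with the letters of both motifs, or of their reverse complements TTCAAA and ATTGG, in capitals. Cdc25c and Ska1, at 1.64 and 1.46, had no entry.
Top2a promoter, chr11:99024140-99024439, minus strand: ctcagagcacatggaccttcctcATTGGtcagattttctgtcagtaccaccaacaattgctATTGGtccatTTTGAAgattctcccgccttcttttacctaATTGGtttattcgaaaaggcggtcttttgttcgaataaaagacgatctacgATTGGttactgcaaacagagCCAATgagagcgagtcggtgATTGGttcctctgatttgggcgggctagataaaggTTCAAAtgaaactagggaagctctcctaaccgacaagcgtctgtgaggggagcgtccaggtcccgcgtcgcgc
Mki67 promoter, chr7:135716330-135716629, minus strand: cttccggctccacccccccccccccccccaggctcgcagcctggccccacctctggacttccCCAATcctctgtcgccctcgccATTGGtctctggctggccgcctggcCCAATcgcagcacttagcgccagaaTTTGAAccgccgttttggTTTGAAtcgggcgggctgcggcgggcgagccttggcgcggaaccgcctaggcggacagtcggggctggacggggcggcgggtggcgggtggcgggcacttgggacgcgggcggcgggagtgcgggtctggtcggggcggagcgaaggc
Cenpf promoter, chr1:189688037-189688336, minus strand: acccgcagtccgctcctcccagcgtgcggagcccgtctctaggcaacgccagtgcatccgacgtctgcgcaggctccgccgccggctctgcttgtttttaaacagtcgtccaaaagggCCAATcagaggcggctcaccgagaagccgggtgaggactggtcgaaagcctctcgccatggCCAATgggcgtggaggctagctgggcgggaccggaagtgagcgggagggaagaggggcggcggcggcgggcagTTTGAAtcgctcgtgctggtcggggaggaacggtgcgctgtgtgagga
The window of Top2a held 2 TTTGAA and 6 CCAAT matches, that of Mki67 held 2 and 3, and that of Cenpf held 1 and 2. These 3 genes had log2 fold changes of 1.58 ± 0.04, 1.42 ± 0.14 and 1.41 ± 0.11.

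Chemokine genes moved the other way. Of 13 tested chemokine, receptor and colony-stimulating factor genes, 8 fell and 2 rose, against 7.65% and 10.6% of all tested genes, and the median log2 fold change was -0.66. Ccl2, which attracts monocytes, on chromosome 11 (81849073 to 81850955), fell from 386 and 372 to 92.6 and 84.8 FPKM, at -2.09 ± 0.05 (adjusted p = 2.9e-05). The neutrophil attractant Cxcl5 fell from 624 and 606 to 213 FPKM in both samples, and its relative Cxcl1 from 113 and 115 to 51.0 and 45.7. Ccl7, Ccl9 and Ccl5 were down-regulated too, at -1.26 ± 0.05, -2.05 ± 0.17 and -1.85 ± 0.26. Thus both CC and CXC members were lower with Hh-CM. Cxcl12, the ligand of Cxcr4, was less affected, at -0.41 ± 0.04. The receptor gene Ccr7 rose, from 0.247 and 0.240 to 1.65 and 1.77 FPKM, and the scavenger receptor gene Cxcr7 rose by 0.45 ± 0.08. Of the 4 macrophage markers, Cd14 had 2.32 and 3.30 FPKM in Control and 2.95 and 3.71 in Hh-CM samples (adjusted p = 0.513). Ptprc lay between 0.225 and 0.265 FPKM, Csf1r between 0.0552 and 0.136 and Emr1 between 0.0411 and 0.129 over the 4 samples. The 4 markers summed to 2.75 and 3.66 FPKM in Control and to 3.42 and 4.10 in Hh-CM samples, and their part in the chemokine values was not tested.

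In contrast to the chemokines, acute-phase and innate immune genes split. Of 14 tested, 8 rose and 4 fell, and the median was 0.71. Saa3, serum amyloid A3, on chromosome 7 (53967368 to 53971046), was down-regulated from 1351 and 1265 to 340 and 344 FPKM, while its family member Saa1 rose from 0.386 and 0.723 to 3.12 and 3.67. The amyloid genes thus differed in level as well as direction. Reads of near-identical family members can be divided between them by the assembly, and how far this touched the Saa genes was not tested. Lbp, which binds bacterial lipopolysaccharide, rose by 2.19 ± 0.09, the cytokine genes Il6 by 1.75 ± 0.23 and Il33 by 1.44 ± 0.04, and Chi3l1 by 1.42 ± 0.19. The siderophore-binding Lcn2 was down-regulated at -1.26 ± 0.27, and complement C3 fell by 0.59 ± 0.04. Interferon-stimulated and antigen-presentation genes stayed near 0, with 2 of 16 rising, 1 falling and a median of 0.00. Retnla, a secreted resistin-like protein, had 0 and 0.403 FPKM in Control and 35.1 and 41.6 in Hh-CM samples, a change of 7.42 ± 0.69. The prolactin-family gene Prl2c5 was down-regulated at -1.30 ± 0.22, and its near-identical relatives make that value uncertain.

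The insulin-like growth factor axis rose at the binding proteins. Of 15 tested members, 6 rose and 1 fell, and 4 were up-regulated. Igfbp5, on chromosome 1 (72904506 to 72921458), rose from 1.66 and 1.61 to 9.97 and 10.5 FPKM. Igfbp7 rose from 94.2 and 97.3 to 351 and 384 FPKM, and Igfbp4 from 25.9 and 22.1 to 86.8 and 82.7. All 3 encode secreted proteins that bind insulin-like growth factors. The ligand gene Igf1 was up-regulated from 3.36 and 3.15 to 8.06 and 8.44 FPKM, whereas Igf2r differed by 0.22 ± 0.06 (adjusted p = 0.0643). The member that fell was Htra1, a protease that cleaves such binding proteins.

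Of the other growth factor lists, that of PDGF and FGF had the most members that fell. For Wnt, 7 of 21 tested members rose and 4 fell. Lgr4, a receptor for R-spondins, rose from 7.04 and 6.80 to 29.9 and 31.1 FPKM and the receptor Fzd4 from 4.91 and 5.30 to 15 and 14.7, while the secreted inhibitor Sfrp2 was down-regulated at -1.02 ± 0.10. For BMP and activin, 4 of 29 rose and 4 fell, against 10.6% and 7.65% of all tested genes. Inhba, the activin A subunit, rose from 2.66 and 2.69 to 15.4 and 15.5 FPKM, at 2.49 ± 0.10, and the inhibitory Smad7 was down-regulated at -1.02 ± 0.25. Inhba was thus the only member of that list up-regulated past the fold limit. For PDGF and FGF, 3 of 21 rose and 8 fell. The ligand genes Pdgfc and Fgf23 were up-regulated, at 1.97 ± 0.09 and 2.39 ± 0.15, and the receptor Fgfr2 rose by 0.89 ± 0.12. In contrast, the feedback genes Dusp4, Spry4, Spry2 and Dusp6, which dampen signalling through ERK, fell by 1.41, 0.84, 0.66 and 0.53. The fibroblast growth factor genes Fgf7 and Fgf10 fell by 0.39 and 0.49.

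In the Notch list, Hes1 and the ligand gene Jag1 were up-regulated, Jag1 at 1.60 ± 0.13, next to Dlk1. The DNA-binding Rbpj fell by 0.48 ± 0.04, and Notch2 differed by -0.10 ± 0.07 (adjusted p = 0.355). Of the 13 tested Notch genes, 3 rose and 1 fell.

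Vascular factors held members with large changes in both directions. Of 24 tested, 8 rose and 8 fell, with 6 and 4 of them past the fold limit. Tek, the Tie2 receptor, rose from 0.0702 and 0.108 to 1.06 and 1.24 FPKM, next to its ligand gene Angpt4, which went from 4.01 and 4.72 to 26.2 and 31.4. Ace, the angiotensin-converting enzyme, rose by 2.52 ± 0.08, the co-receptor Nrp1 by 1.81 ± 0.05 and Ramp2, an accessory protein of the adrenomedullin receptor, by 1.48 ± 0.19. Thbs1, an inhibitor of vessel growth, fell from 116 and 120 to 35.2 and 35.6 FPKM, and the decoy VEGF receptor Flt1 and the vasoconstrictor Edn1 were down-regulated at -1.51 ± 0.27 and -1.43 ± 0.30. Vegfa had 47.3 and 48.8 FPKM in Control and 50.6 and 53.4 in Hh-CM samples (adjusted p = 0.211). The endothelial markers Pecam1, Cdh5, Kdr and Tie1 summed to 0.0410 and 0.0494 FPKM in Control and lay between 0.130 and 0.195 in Hh-CM samples.

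Axon guidance genes showed modest changes, with 10 of 31 rising, 5 falling and 2 up-regulated. Slit2, a repulsive ligand, rose from 8.56 and 8.63 to 19.8 and 21.4 FPKM, and the ephrin gene Efnb1 rose by 1.02 ± 0.17. Its relative Efnb2 fell by 0.79 ± 0.10. Among 10 neurotrophic genes, 4 rose and 1 fell. Bdnf, a neurotrophin, rose by 0.52 ± 0.07, and Gdnf, a ligand of the Ret receptor complex, fell by 0.51 ± 0.09.

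In the matrix, fibrillar collagens were abundant and changed little, while basement membrane collagens rose. Of 32 tested collagen and processing genes, 9 rose and 9 fell. Col4a1 and Col4a2, the chains of type IV collagen, rose from 48.3 and 49.7 to 151 and 173 FPKM and from 36.2 and 35.4 to 90.0 and 103. Col1a1, at 748 and 763 FPKM in Control and 812 and 926 in Hh-CM samples, did not pass the test (adjusted p = 0.107), nor did Col3a1 (adjusted p = 0.244). The cross-linking enzyme Lox fell by 0.76 ± 0.04. Of 36 matricellular and elastic-fibre genes, 11 rose and 10 fell, with 5 past the fold limit each way. Lama5, Cthrc1, Fbn1, Thbs3 and Mfap4 were up-regulated, and Dpt, Thbs1, Nid2, Cyr61 and Spp1 down-regulated. The basement membrane genes thus did not move as one, since Nid2, a linker of laminin and collagen IV, was at -1.29 ± 0.04. The locus of Nid2 changed extent between samples. Ogn, a small leucine-rich proteoglycan, fell from 136 in both Control samples to 63.9 and 59.8 FPKM. Of 21 metalloproteinase, protease and inhibitor genes, 8 fell and 2 rose, with Timp4 and Adam12 down-regulated and the plasminogen activator Plat at -0.86 ± 0.06.

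Contractile genes and targets of SRF and YAP fell more often than they rose. Of 30 tested, 13 fell and 2 rose, against 7.65% and 10.6% of all tested genes, and the median log2 fold change was -0.23. Tagln, an actin-binding protein of smooth muscle, fell from 83.2 and 85.2 to 32.8 and 33.2 FPKM, and Mylk, myosin light chain kinase, from 13.3 and 13.1 to 4.95 and 4.49. Acta2, smooth muscle actin, fell less, from 377 and 372 to 212 and 225 FPKM, at -0.78 ± 0.04. Of the YAP targets, Ankrd1 and Cyr61 were down-regulated at -1.15 ± 0.10 and -1.03 ± 0.06, but Ctgf rose by 0.59 ± 0.06, so these did not move together. Without each library in turn, 9 or 10 members fell.

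Most members of the glucocorticoid and the adipogenic lists passed the test, in both directions. Of 15 tested genes in the glucocorticoid list, 5 rose and 7 fell, against 10.6% and 7.65% of all tested genes. That list holds Hsd11b1, Mt2, Aldh1a7, Ankrd1 and Ism1, which the study named for their response in these samples, so its counts are partly fixed. Next to Hsd11b1, the receptor gene Nr3c1 rose by 0.64 ± 0.05 and the receptor chaperone gene Fkbp5 by 0.74 ± 0.06. Pdk4 and Sgk1 fell by 1.11 ± 0.04 and 0.66 ± 0.05. Fkbp5, Pdk4 and Sgk1 are all known to be induced by glucocorticoid. Of 16 adipogenic and lipid genes, 9 rose and 4 fell. This list too holds genes from the study's own Hh-CM results, Apod, Ppp1r3c, Steap4 and Fabp4 among them. Apod, a lipid carrier, rose by 2.20 ± 0.30, Ppp1r3c, a glycogen regulator, by 1.90 ± 0.18 and Steap4, a metalloreductase, by 1.19 ± 0.05, while Fabp4, a fatty acid carrier of adipocytes, was down-regulated at -1.06 ± 0.21. Pltp, also in this list, is one of the genes at 0 on a whole side.

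Of 28 genes of cholesterol and fatty acid synthesis, 8 fell and 3 rose, none past the fold limit, and the median was -0.16. Scd1, a desaturase, fell by 0.70 ± 0.06, and fatty acid synthase, Fasn, had 10.3 and 10.1 FPKM in Control and 10.2 and 11.0 in Hh-CM samples (adjusted p = 0.601). In the retinoid list, Cyp26b1 and Tgm2 were up-regulated and the binding protein Crabp1 and Aldh1a7 down-regulated, at -1.09 ± 0.13 and -1.48 ± 0.27. Of 17 clock genes, 4 rose and 2 fell. The output genes Usp2 and Hlf were up-regulated at 2.64 ± 0.20 and 1.04 ± 0.07 and the core activator Arntl fell by 0.42 ± 0.05, while Per2 differed by 0.22 ± 0.15 (adjusted p = 0.376). Dbp and Nr1d1 each had a single sample listed at 0 and gave no usable value. In the glycolysis and hypoxia list, 8 of 29 fell and 1 rose. Hif1a fell by 0.54 ± 0.05 and hexokinase 2, Hk2, by 0.46 ± 0.07, with the glucose transporter Slc2a1 at -0.10 ± 0.06 (adjusted p = 0.297).

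Few respiratory chain and cilium genes passed the test. Of 41 respiratory chain and citrate cycle genes, Cox6a1 rose by 0.13 ± 0.03 and Ndufb3 fell by 0.22 ± 0.05, and the other 39 did not pass the test (median -0.04). Of 44 genes of the primary cilium, the organelle through which Hedgehog ligand is sensed, 4 rose and none fell, with a median of 0.14 against 0.03 over all tested genes. Cep164, of the cilium base, rose by 0.84 ± 0.11, while Ift88, of intraflagellar transport, had 5.75 and 6.92 FPKM in Control and 6.86 and 6.96 in Hh-CM samples (adjusted p = 0.586). Of 8 tested Hox genes, Hoxd8 and Hoxd9 rose, by 1.04 ± 0.10 and 0.69 ± 0.11. The locus of Hoxd8 changed extent between samples.

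**Figure D4:**
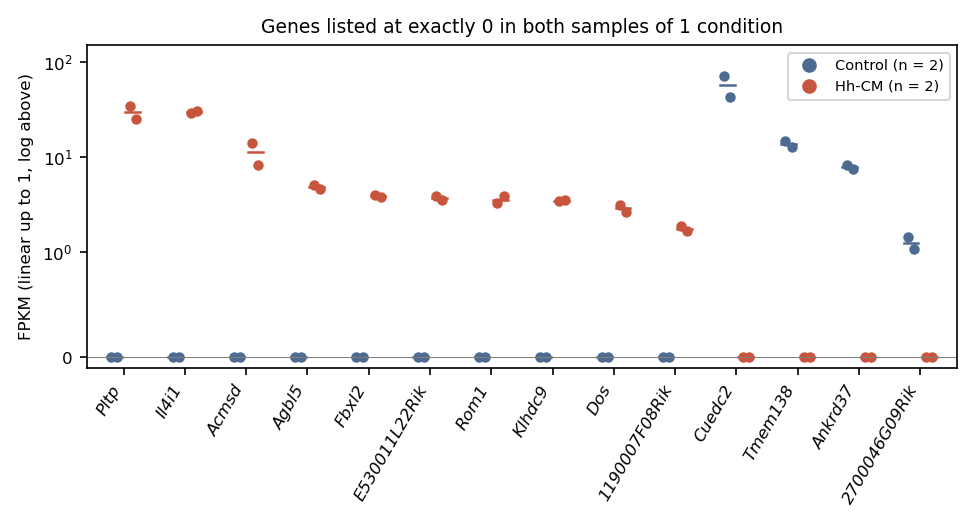
FPKM of the 14 genes past both thresholds that were listed at exactly 0 in both samples of 1 condition only, linear up to 1 and log above, with a bar at each group mean. The 10 genes on the left were at 0 in both Control samples and the 4 on the right in both Hh-CM samples.

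Genes listed at exactly 0 on a whole side form a group of their own. At 0 in both Control samples only were 13 tested genes, 10 of them past both thresholds, and at 0 in both Hh-CM samples only were 9, 4 of them past both. A gene could enter the test at 0 on one side only by reaching the limit on the other, so these counts are fixed in part by the limit. No fold change between Hh-CM and Control is given for them. Values of overlapping or neighbouring loci are given beside the genes, and their part in each 0 was not tested.

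Pltp, phospholipid transfer protein, on chromosome 2 (164665018 to 164683211), was listed at 0 in both Control samples and at 34.7 and 25.2 FPKM in the Hh-CM samples. The neighbouring Ctsa had 71.1 and 77.0 FPKM in Control and 61.1 and 67.7 in Hh-CM samples. Il4i1, an amino acid oxidase, was at 0 in Control and at 29.0 and 30.5 FPKM in Hh-CM samples, and the overlapping Atf5 was at 339 and 313 against 233 and 243. Agbl5, a carboxypeptidase of tubulin, was at 0 against 5.07 and 4.65, beside Ost4 at 342 in both Control and 300.1 and 297.5 in the Hh-CM samples. In each of these 3 pairs the neighbour was lower where the gene had a value, but 62.9% of all tested genes did not overlap between the conditions. Acmsd, an enzyme of tryptophan breakdown, was at 0 against 14.1 and 8.31 FPKM, and an overlapping unnamed locus was at 5.73 and 3.25 against 1.63 and 0.658. Fbxl2, an F-box protein, was at 0 against 4.01 and 3.81 FPKM. Its neighbour Ubp1 had 22.3 and 22.6 FPKM in Control and 17.85 and 21.5 in Hh-CM samples. The other 5 genes on this side, E530011L22Rik, Rom1, Klhdc9, Dos and 1190007F08Rik, lay between 1.65 and 3.93 FPKM in the Hh-CM samples. Stk11, beside Dos, had 43.6 and 42.1 FPKM in Control and 38.95 and 38.55 in Hh-CM samples. For Lrrc47, beside 1190007F08Rik, the conditions overlapped, at 12.2 and 13.2 against 10.4 and 13.7 FPKM.

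On the opposite side, Cuedc2, on chromosome 19 (46404302 to 46413150), had 72.4 and 43.5 FPKM in Control and was listed at 0 in both Hh-CM samples. The locus given to Cuedc2 had the same extent in all 4 samples. Within its span, the Hh-CM samples also had 3 and 4 small unnamed loci, of 1.03 to 5.03 FPKM. Tmem138, a ciliary protein on chromosome 19, had 14.7 and 12.9 FPKM in Control and 0 in Hh-CM samples. Its locus had the same extent in Control replicate 2 and both Hh-CM samples. The neighbour Cybasc3 had 17.7 and 13.4 FPKM in Control samples. In the Hh-CM samples a wider unnamed locus covered Cybasc3, with 274 and 289 FPKM. That locus began beyond the end of the Tmem138 locus of those samples and ran past the end of Cybasc3 (10704311 against 10664531). The part of these other loci in the listed 0 values was not tested. Ankrd37, known as a hypoxia-induced gene, had 8.21 and 7.48 FPKM in Control and 0 in Hh-CM samples, with the overlapping Ufsp2 at 33.6 and 31.8 against 39.6 and 37.9. The last gene, 2700046G09Rik, had 1.44 and 1.08 FPKM in Control samples.

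The samples labelled Esrrb gave another reading of the same medium, with control samples of their own. Both comparisons share 1 fit and its estimate of the spread of each gene, so their tests are not independent. The labels of these samples say that they carry the Esrrb vector. By Western blot, the study reports increased Esrrb protein in cells transfected with that vector. The mouse Esrrb locus was nevertheless listed at 0 in all 4 libraries with that label. The species of the inserted sequence is not stated in the sources. In these libraries 478 of 10199 genes (4.69%) passed both thresholds between Esrrb+Hh-CM and Esrrb, 343 up (3.36%) and 135 down (1.32%). Of the 194 genes up-regulated with the empty vector, 171 also rose in the libraries labelled Esrrb, against 13.9% of all tested genes, and 147 were up-regulated. Of the 79 down-regulated genes, 69 also fell, against 9.54%, and 58 were down-regulated. Gli1 and Ptch1 had log2 fold changes of 7.69 and 3.93 there, next to 7.77 and 3.73 with the empty vector, and the differences did not pass the test (adjusted p = 0.91 and 0.551). The opposite sign with an adjusted p below 0.05 was found for 2 of the up-regulated and 0 of the down-regulated genes.

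**Figure D5:**
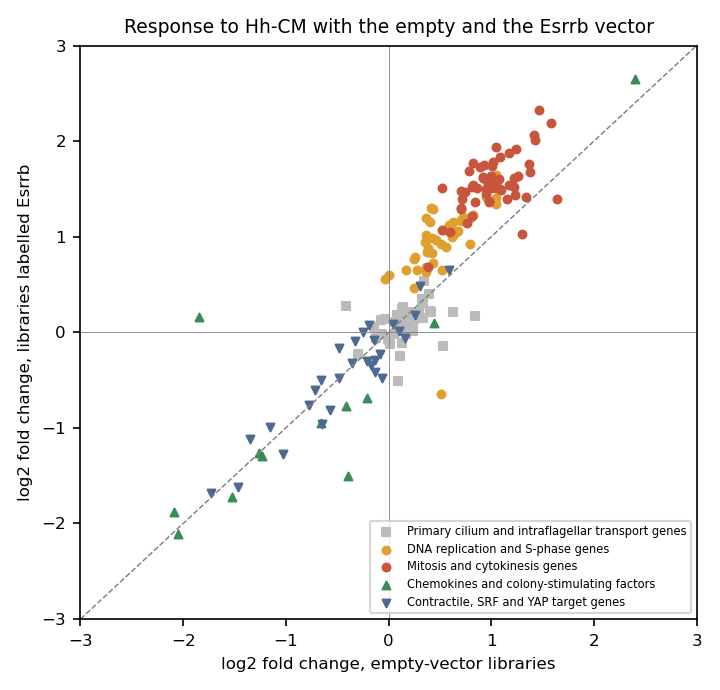
Log2 fold change with Hh-CM in the libraries labelled Esrrb (y) against that in the empty-vector libraries (x), 1 point per gene above 0 in the 4 empty-vector samples, for 5 lists, with the line of equal change dashed. Most red mitosis and yellow replication points lie above the line, while contractile and cilium points lie on both sides of it.

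The difference of the 2 responses, tested as an interaction, passed for 135 of 10199 genes (1.32%). Without each of the 4 empty-vector libraries the count was 75 (Control replicate 1), 91 (Control replicate 2), 101 (Hh-CM replicate 1) and 75 (Hh-CM replicate 2), and it was 71 with no variance trend. The mitosis and replication genes mostly had the larger log2 fold change in the libraries labelled Esrrb, 58 of 60 and 41 of 42, against 50.2% of all tested genes. There all 60 mitosis genes rose, 59 of them past the fold limit, with a median of 1.55 against 0.98. The interaction test was passed by 11 of them, all with the larger rise in the libraries labelled Esrrb. These 11 were Ccna2, Ccnb1, Cdk1, Kif2c, Kif4, Ncapd2, Plk1, Racgap1, Top2a, Tpx2 and Ube2c. This count rested on the full set of samples and on the fit, since 0 to 2 passed without each empty-vector library in turn and 7 with no variance trend. Of the replication genes, 38 of 42 rose there, with a median of 0.99 against 0.49, and 0 passed the interaction test. The chemokine list had 9 of 13 members that fell there, against 8 with the empty vector. Ccl5 differed most in that list, at 0.16 (adjusted p = 0.71) against -1.85, with an adjusted p of the difference of 0.0662. Dlk1 had 2042 and 502 FPKM in Esrrb samples and 621 and 605 FPKM with Hh-CM added, so the 2 samples of a condition lay far apart there. Of the genes at 0 in Control, Pltp and Fbxl2 were at 0 in the Esrrb samples as well, and in the Esrrb+Hh-CM samples they had 12.6 and 17.8 FPKM (Pltp) and 4.34 and 3.83 FPKM (Fbxl2). In contrast, Il4i1 had 29.6 and 27.3 FPKM in the Esrrb samples, Cuedc2 had 34.5 and 35.4 FPKM with Esrrb+Hh-CM, and Ankrd37 was listed at 0 in all 4 libraries labelled Esrrb.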

How the data were processed

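RNA-Seq of polyadenylated RNA was used from 8 samples, grouped by their labels. The deposited FPKM values were made by the authors, who trimmed reads with FASTX-Toolkit, aligned these against mm9 (Bowtie2, TopHat2) and assembled each sample with Cufflinks guided by the annotation. The authors' Cuffmerge and Cuffdiff steps need reads and were not repeated.

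Cufflinks numbers loci anew in each sample. Each of the 26283 to 27992 loci per sample was therefore given to the mm9 gene (GENCODE annotation) whose span, or a transcript's, it overlapped most, by at least 0.5 of the joint length, and FPKM were summed per gene. Of the loci at FPKM 1 or higher, 72.61% to 77.08% found a gene, and these genes held 31.64% to 46.64% of the summed FPKM of all loci. Where a RefSeq identifier was present, 98.65% gave the same symbol.

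limma 3.58.1 (R 4.3.3) was fitted to log2(FPKM + 0.1) of all 8 samples, with 4 group means, a variance trend and Benjamini-Hochberg adjustment over all tested genes. For 129 genes without a value in some sample labelled Esrrb, that sample was left out of the gene's fit, and 12 genes had no value for that comparison. The fit was tested on simulated data. The members and the 35 gene lists (1082 symbols, 1076 matched, 740 tested) were chosen with earlier results of these data known, including genes the study named. Named genes are Gli1, Ptch1, the 15 largest increases and decreases among called genes above 0 in all 4 samples, the 5 highest called genes at 0 on each side, and list members past both thresholds, with the smallest adjusted p or with a defining role. The largest increases and decreases also had to have the same sign in all 4 pairs of a Hh-CM and a Control sample. Other genes were named after their values were seen. Lists were described by counts and medians only. Alternatives covered pseudocount, FPKM limit, scaling, locus choice, variance trend, replicate block and leaving out each sample. Some items are not reported here.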

Additional observations from a re-analysis of the deposited data

Results flagged for a closer look

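The Hh-CM response of 15 genes named above, leaving out those at 0 on a whole side, differed between the libraries labelled Esrrb and the empty-vector libraries by the interaction test, given here as Esrrb minus empty vector on the log2 scale. Among cell division genes the difference was 0.83 for Ccnb1, 0.55 for Cdk1, 0.77 for Plk1 and 0.61 for Top2a, each with the larger rise in the libraries labelled Esrrb. A larger rise there was also found for Ramp2 (2.38), Igfbp4 (1.06), Inhba (1.03) and Tgm2 (0.61). Smaller rises there were found for Il33 (-0.86), Igf1 (-0.84), Mfap4 (-0.79) and Nrp1 (-0.50). The decreases of Ogn (-1.28), Pdk4 (-0.62) and Gas1 (-0.48) were larger there. For 5 more genes the test was passed through libraries listed at exactly 0, so that it shows a listed 0 and no measured difference in response. Their fitted values, set by the pseudocount, were 8.88 for Cuedc2, 7.29 for Tmem138, 6.31 for Ankrd37, -7.67 for Il4i1 and -5.50 for Agbl5, and Ankrd37 was listed at 0 in all 4 libraries labelled Esrrb. The mouse Esrrb locus was listed at 0 in all 4 libraries labelled Esrrb. Increased Esrrb protein in the transfected cells is reported by the study from a Western blot.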

How the results depend on the processing

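The 273 genes past both thresholds became 33 (19 up, 14 down) where only loci with a RefSeq identifier were kept, which left 763 genes, and the adjusted p alone was then passed by 224 in place of 1861. With a pseudocount of 1, 52 genes were down-regulated in place of 79. Leaving out each replicate in turn gave 995 to 1060 genes with an adjusted p below 0.05 alone and an interaction count of 75 to 101 in place of 135. That count was 71 with no variance trend and 63 with RefSeq loci only. Replicate numbers did not pair the samples (correlation of deviations between Control and Hh-CM 0.10), and the replicate block gave 265 genes, 1511 with the adjusted p alone and 52 interactions, 1 of them a mitosis gene in place of 11, with 59 mitosis genes and 22 replication genes that rose. With RefSeq loci only, the members that rose numbered 6 for mitosis and 3 for replication, those that fell 3 for chemokines and 3 for contractile genes, and none of the receptor genes was left. Where the locus had to be the same in the 4 samples, 4 receptor genes were left and 0 rose. With no FPKM limit 12 replication genes rose. Without each replicate, 12 to 15 replication genes and 51 to 55 mitosis genes rose, and 7 to 8 chemokines and 9 to 10 contractile genes fell.

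Among named genes, signs turned only for Foxf1a, Foxf2, Gli3 and Ift88, which had not passed the test. List medians were not tested, and a turned sign was recorded only where the median lay further from 0 than the spread between sample pairs. The Wnt median, 0.09 in the main fit, was -0.019 with the same locus and -0.18 with RefSeq loci. The neurotrophic median was -0.0057 after rescaling. Leaving out each replicate in turn, the forkhead median ranged from -0.0112 to 0.065, Foxf1a from -0.24 to 0.18, Foxf2 from -0.18 to 0.35, Gli3 from -0.058 to 0.0094 and Ift88 from -0.0022 to 0.26. Depth is known only in relative terms, so low FPKM values have no counting error here.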
